A study of Mus musculus with 8 samples.

Results

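Transcripts of glucose transport, glycolysis and the pentose phosphate pathway were measured in single cells of mouse inguinal white adipose tissue (iWAT) under 2 feeding schedules. The 10 members are the glucose transporters Slc2a1 and Slc2a4, the glycolytic genes Hk2, Eno1, Pkm and Ldha, and the pentose phosphate genes G6pdx, Pgd, Tkt and Taldo1. They were chosen by symbol, with earlier results of these data known, and all 10 were found among the 32285 genes listed. The material was the stromal vascular fraction (SVF), the cells that are pelleted from digested fat while most mature adipocytes float. Of the 8 libraries, 4 came from mice with free access to food (Ad-Lib 1, 3, 5 and 7) and 4 from mice fed only within set windows of the night (TAN 2, 4, 6 and 8). All mice were C57BL/6 by the labels and C57BL/6J in the study's text, with no transgene or deletion named in either group, and male by the study's text. The labels give an age of 8 weeks, while the study's text describes older animals kept on their schedule for months, so the age is uncertain. By the study's general methods, tissue was taken in the dark phase after the first meal window, so the schedule and the time since the last meal cannot be told apart. The study's text splits the libraries by animal, and whether each library held 1 animal is not stated in the labels.

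Glucose enters cells through facilitative transporters. Slc2a4 encodes the insulin-responsive transporter of adipocytes and muscle, and Slc2a1 encodes the transporter that most other cells use. Hexokinase traps glucose as its 6-phosphate, which either runs down glycolysis to pyruvate and lactate or enters the pentose phosphate pathway, whose oxidative arm yields NADPH and whose non-oxidative arm returns sugar phosphates to glycolysis. In fat, pyruvate and NADPH feed the synthesis of fatty acids.

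Counts were unique molecular identifiers (UMIs), 1 per captured transcript, from droplet libraries read at the 3′ end of transcripts. The files held 44427 barcodes and 232345333 UMIs, with 25320800 to 37140950 UMIs per library. After the study's limits on depth and mitochondrial share, 36370 droplets remained, 3717 to 5654 per library, with a median of 3925.5 to 6560.5 UMIs. Droplets were assigned to a lineage by a marker, Pdgfra for stromal progenitors, Pecam1 for endothelium, C1qa for macrophages, Cd3e for T cells and Cd79a for B cells. Droplets in which Adipoq and Car3, both abundant in adipocytes, made up at least 0.5% of UMIs and no other marker was present were called adipocyte-rich. In all, 25747 droplets were assigned, 70.8% of those kept. A further 3323 held markers of several lineages, which includes doublets, and were left out, and 7300 held no marker. The share assigned was lowest in TAN 6, at 57.4%. Between 5 and 16 barcodes were shared by any pair of libraries.

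Raw UMIs were summed per library within each lineage, and levels are given as CPM, the usual scaling of counts by library total, and as mean ± SD over 4 libraries. The 5 marker-gated lineages carried their own check lists (for example Cdh5, Cldn5, Egfl7, Kdr and Flt1 in Pecam1+ droplets, 6259 in Ad-Lib and 5276 CPM in TAN). Adipocyte-rich droplets carried Plin1, Cidec, Cfd, Retn, Lep, Plin4 and Lipe, which were not used to choose them and summed to 18340 to 22638 CPM in Ad-Lib libraries and 16629 to 24116 CPM in TAN libraries. They were shallow, with a mean over libraries of the median UMI count of 1012 in Ad-Lib and 1076 in TAN. They numbered 739 in Ad-Lib (136 to 253 per library) and 773 in TAN (90 to 268 per library, the lowest in TAN 6). Mature adipocytes are not expected in an SVF pellet, and whether a droplet held a whole cell, a fragment or released RNA was not tested.

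In adipocyte-rich droplets, 3 members of lower glycolysis and 1 of the 4 pentose phosphate members rose in TAN mice. Of 9 members that passed the filter on low counts, 4 rose and none fell: Tkt, a transketolase of the non-oxidative pentose phosphate arm, Eno1, the enolase of lower glycolysis, Pkm, the pyruvate kinase, and Ldha, a subunit of lactate dehydrogenase. Calls required an adjusted p under 0.05 by the quasi-likelihood test of edgeR (Benjamini-Hochberg over all genes tested in the lineage) and a change of at least 1.5-fold. Of all 2588 genes tested in these droplets, 6.45% were called by the same rule, 3.09% as higher in TAN and 3.36% as lower. All 9 estimates were above 0, with a median log2 change of 0.72, against -0.01 over all genes tested. Since the members were chosen with earlier results of these data known, the comparisons with all genes only describe. In 7 members, all but Hk2, G6pdx and Slc2a1, every TAN library lay above every Ad-Lib library, while 4.62% of genes with a mean of at least 20 CPM did so.

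The 4 members that rose lie on different chromosomes of GRCm38, Tkt (ENSMUSG00000021957) at chr14:30548359-30574720, Eno1 (ENSMUSG00000063524) at chr4:150236721-150248879, Pkm (ENSMUSG00000032294) at chr9:59656368-59679375 and Ldha (ENSMUSG00000063229) at chr7:46841475-46855627, each on the forward strand. Taldo1 (ENSMUSG00000025503) lies at chr7:141392199-141402968 and Slc2a1 (ENSMUSG00000028645) at chr4:119108711-119137983, also forward, while Slc2a4 (ENSMUSG00000018566) at chr11:69942539-69948188, Hk2 (ENSMUSG00000000628) at chr6:82725025-82774454, Pgd (ENSMUSG00000028961) at chr4:149149991-149166771 and G6pdx (ENSMUSG00000031400) at chrX:74409483-74429194 are on the reverse strand. Since they moved together, the 250 bases before their transcription starts are shown from RefSeq (GRCm38.p6, forward strand). Where RefSeq lists several starts, the one with the most GC boxes is given. Capitals mark the GC box GGGCGG and the E-box CACGTG, each searched on both strands (a GC box on the reverse strand reads CCGCCC), and the pair of GC boxes at the end of the Tkt window overlap by a base.
Tkt, chr14:30548881-30549130: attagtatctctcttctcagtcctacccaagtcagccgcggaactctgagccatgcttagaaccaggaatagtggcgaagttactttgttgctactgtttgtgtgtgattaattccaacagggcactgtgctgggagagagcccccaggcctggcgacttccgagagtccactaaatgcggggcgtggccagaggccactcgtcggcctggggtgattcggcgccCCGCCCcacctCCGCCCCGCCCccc
Eno1, chr4:150236974-150237223: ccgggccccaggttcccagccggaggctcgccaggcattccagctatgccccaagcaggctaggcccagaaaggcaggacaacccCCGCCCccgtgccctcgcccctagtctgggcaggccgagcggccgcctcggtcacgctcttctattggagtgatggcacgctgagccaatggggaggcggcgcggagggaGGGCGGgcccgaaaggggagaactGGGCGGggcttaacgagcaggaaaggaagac
Pkm, chr9:59656326-59656575: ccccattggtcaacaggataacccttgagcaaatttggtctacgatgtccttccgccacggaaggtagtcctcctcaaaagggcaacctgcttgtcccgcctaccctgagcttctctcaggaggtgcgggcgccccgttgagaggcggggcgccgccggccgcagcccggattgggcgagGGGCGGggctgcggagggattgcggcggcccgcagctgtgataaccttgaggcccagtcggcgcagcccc
Ldha, chr7:46845554-46845803: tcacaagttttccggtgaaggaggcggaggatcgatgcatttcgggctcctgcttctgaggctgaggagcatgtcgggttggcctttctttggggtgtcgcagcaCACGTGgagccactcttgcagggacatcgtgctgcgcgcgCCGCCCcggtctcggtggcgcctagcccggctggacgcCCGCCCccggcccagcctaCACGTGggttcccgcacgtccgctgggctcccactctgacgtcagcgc
RefSeq windows were found for 9 of 10 members, and Slc2a4 had none. A GC box was found in 10 of their 14 windows, and in 32.7% of 32851 promoter windows of this length. All 9 members had at least 1 window with it, a count that favours members with several windows. The E-box was found in 1 of the 14 windows, that of Ldha shown here, at 145 and 48 bases before its start, and in 6.02% of all windows. These are matches of letters, and no binding was measured.

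**Figure D1:**
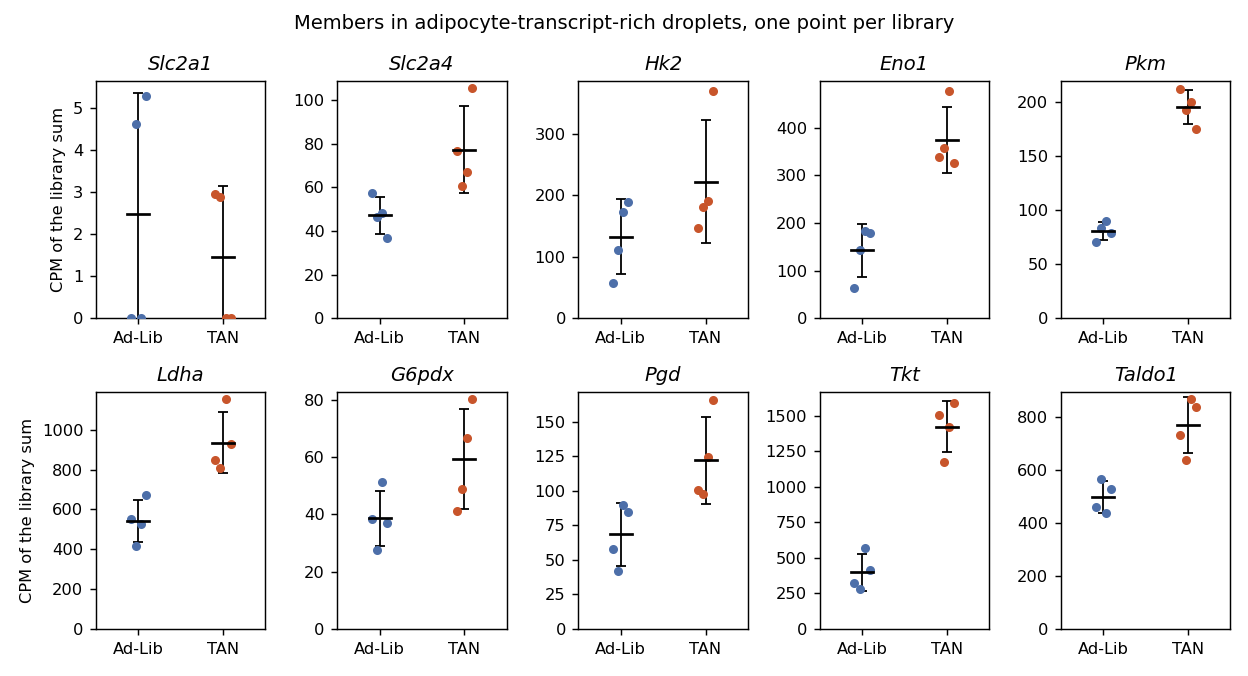
Level of each member in adipocyte-rich droplets, in CPM of the library sum (vertical axes start at 0). Points are the 4 Ad-Lib and 4 TAN libraries, and bars are mean ± SD. Tkt lay between 282 and 569.9 CPM in Ad-Lib and between 1177 and 1594 CPM in TAN.

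Of the transporters, Slc2a4, the insulin-responsive form, was measured well enough to be tested. Its level was 57.6, 46.2, 48.0 and 37.0 CPM in Ad-Lib 1, 3, 5 and 7 and 76.7, 60.4, 66.8 and 105 CPM in TAN 2, 4, 6 and 8. The lowest TAN library was above the highest Ad-Lib library, and the log2 change of 0.68 ± 0.29 (SE) did not pass the test (adjusted p = 0.184, edgeR). The estimate rests on 116 UMIs, and a Slc2a4 UMI was found in 4.997% ± 0.833 of droplets in Ad-Lib and 8.75% ± 2.54 in TAN. Slc2a1 gave 4 UMIs in all, 1 in each of Ad-Lib 3, Ad-Lib 7, TAN 2 and TAN 4, and was below the filter. A count of 0 in the other 4 libraries allows up to 9.61 to 28.6 CPM, so a difference was not detectable at this depth (two-sided exact permutation p = 0.657).

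Hk2, the insulin-regulated hexokinase, had 57.6, 111, 173 and 190.1 CPM in the Ad-Lib libraries and 147, 181, 191 and 371 CPM in the TAN libraries. The groups overlapped, TAN 8 was far above the other TAN libraries, and the log2 change of 0.63 ± 0.26 did not pass (adjusted p = 0.166, edgeR). Without droplets holding a UMI of stromal, endothelial or pericyte and smooth muscle marker genes, it was 0.08 ± 0.28.

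Lower glycolysis held 3 of the 4 called members. Eno1 had 64.0, 143, 183 and 179.6 CPM in Ad-Lib 1, 3, 5 and 7 and 339, 357, 477 and 326 CPM in TAN 2, 4, 6 and 8, with a log2 change of 1.28 ± 0.20 (adjusted p = 8.91e-05, edgeR). Pkm was the tightest within groups, at 70.4, 83.1, 89.7 and 79.2 CPM in Ad-Lib and 212, 193, 200.3 and 175 CPM in TAN, with a log2 change of 1.24 ± 0.20 (adjusted p = 0.000133, edgeR). For both genes the lowest TAN library lay above the highest Ad-Lib library. Ldha rose less, from 550.1, 415, 525 and 671 CPM in Ad-Lib to 849, 809, 1154 and 927 CPM in TAN, with a log2 change of 0.75 ± 0.15 (adjusted p = 0.00184, edgeR). The groups did not overlap, and with droplets taken from 0.2% of Adipoq and Car3 the change of Ldha was 0.58, under 1.5-fold (adjusted p = 0.0229).

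The oxidative pentose phosphate arm was measured by few UMIs. G6pdx, the glucose-6-phosphate dehydrogenase that opens the pathway, was at 38.6 ± 9.68 in Ad-Lib and 59.3 ± 17.6 CPM in TAN (89 UMIs in all), with overlapping groups and a log2 change of 0.46 ± 0.33 (adjusted p = 0.457, edgeR). Pgd, the next dehydrogenase, was at 68.3 ± 22.7 in Ad-Lib and 122 ± 31.3 CPM in TAN (176 UMIs). Its TAN libraries all lay above the Ad-Lib libraries, and its log2 change of 0.72 ± 0.25 did not pass (adjusted p = 0.0932, edgeR).

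The non-oxidative arm held the member with the largest log2 change in these droplets. Tkt had 326, 282, 569.9 and 412 CPM in Ad-Lib 1, 3, 5 and 7 and 1504, 1177, 1421 and 1594 CPM in TAN 2, 4, 6 and 8. The lowest TAN library was above the highest Ad-Lib library, and the log2 change was 1.79 ± 0.17 (adjusted p = 6.44e-08, edgeR). At least 1 Tkt UMI was found in 33.2% ± 11.1 of droplets in Ad-Lib and 69.4% ± 5.11 in TAN. With each droplet thinned to 1500 UMIs these shares were 38.0% ± 12.8 and 69.8% ± 5.06, after 604 of 739 Ad-Lib droplets and 587 of 773 TAN droplets had been left out as shallower. Taldo1, the transaldolase of the same arm, had 461, 568, 439 and 528 CPM in Ad-Lib and 731, 636, 868 and 837 CPM in TAN. Its groups did not overlap and its adjusted p was 0.0151 (edgeR), but its log2 change of 0.58 ± 0.15 was just under 1.5-fold, so it was not called.

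Several other measures moved with the groups in adipocyte-rich droplets. The median mitochondrial share was 3.38% to 4.61% in Ad-Lib libraries and 5.51% to 6.44% in TAN libraries. The endothelial check list, 5 of 5 genes detected, summed to 1273 to 1602 CPM in Ad-Lib and 677 to 1266 CPM in TAN. The pericyte and smooth muscle list (Rgs5, Acta2, Myh11 and Kcnj8) summed to 824 to 1025 CPM in Ad-Lib and 299 to 601 CPM in TAN, and the stromal list (Col1a1, Col3a1, Dcn, Lum and Col1a2) to 305 to 1024 CPM in Ad-Lib and 219 to 476 CPM in TAN. The lists of both vessel cell types were thus lower in every TAN library, while the stromal and adipocyte lists overlapped between groups. Cfd had the highest level of the adipocyte list, at 15174 ± 1182 in Ad-Lib and 13706 ± 3309 CPM in TAN. Within that list Plin4 was lower in every TAN library (501 to 842 CPM) than in every Ad-Lib library (863 to 1089 CPM). Its other genes overlapped between groups, Lipe with a lower mean in TAN and Retn and Lep with higher means. Of the immune lists, macrophage genes summed to 125 to 391 CPM in Ad-Lib and 88.5 to 251 CPM in TAN, B cell genes to 69.2 to 211 and 38.2 to 271 CPM, and T cell genes to 0 to 6.40 and 0 to 92.1 CPM. With every droplet left out that held a UMI of the stromal, endothelial or pericyte and smooth muscle list, a step chosen after seeing these values, 226 Ad-Lib and 319 TAN droplets remained and the log2 change was 1.51 for Tkt (adjusted p = 6.42e-06, edgeR) and 1.13 for Eno1 (adjusted p = 0.00252). In that setting Taldo1 passed, at 0.63 (adjusted p = 0.0374), while Pkm at 0.89 (adjusted p = 0.0711) and Ldha at 0.54 (adjusted p = 0.0862) did not. Hk2 lost most of its estimate there, at 0.08 ± 0.28 (adjusted p = 0.909), and the other members were not tested. With mitochondrial genes left out of the counts, Tkt, Eno1, Pkm and Ldha were called as before, and the part of the higher mitochondrial share of TAN droplets in these changes was not otherwise tested.

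Droplets were then matched by their load of Adipoq and Car3. Where Adipoq and Car3 made up 0.5% to 1% of UMIs, Tkt was at 214 ± 31.8 in Ad-Lib and 577 ± 101 CPM in TAN. The values were 344 ± 103 and 1380 ± 161 CPM from 1% to 2%, and 548 ± 237 and 1940 ± 237 CPM at 2% or more. Tkt and Pkm did not overlap between groups in any of the 3 ranges, and Eno1 and Ldha overlapped only in the lowest. The adipocyte genes Plin1, Cidec and Cfd overlapped between groups in all 3 ranges, and the other adipocyte genes, Plin4 among them, were not split by range. Plin1, a coat protein of lipid droplets, was at 399 ± 68.8 in Ad-Lib and 457 ± 151 CPM in TAN in the middle range and at 600.2 ± 164.5 and 587 ± 67.8 CPM in the highest. Cidec, another lipid droplet protein, was at 1022 ± 171 and 1133 ± 306 CPM in the middle range and at 1781 ± 182 and 1641 ± 163 CPM in the highest. Cfd, the secreted protease adipsin, had lower means in TAN in each range, from 5479 ± 1275 and 5093 ± 1142 CPM in the lowest to 22652 ± 1851 and 19470 ± 4321 CPM in the highest.

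**Figure D2:**
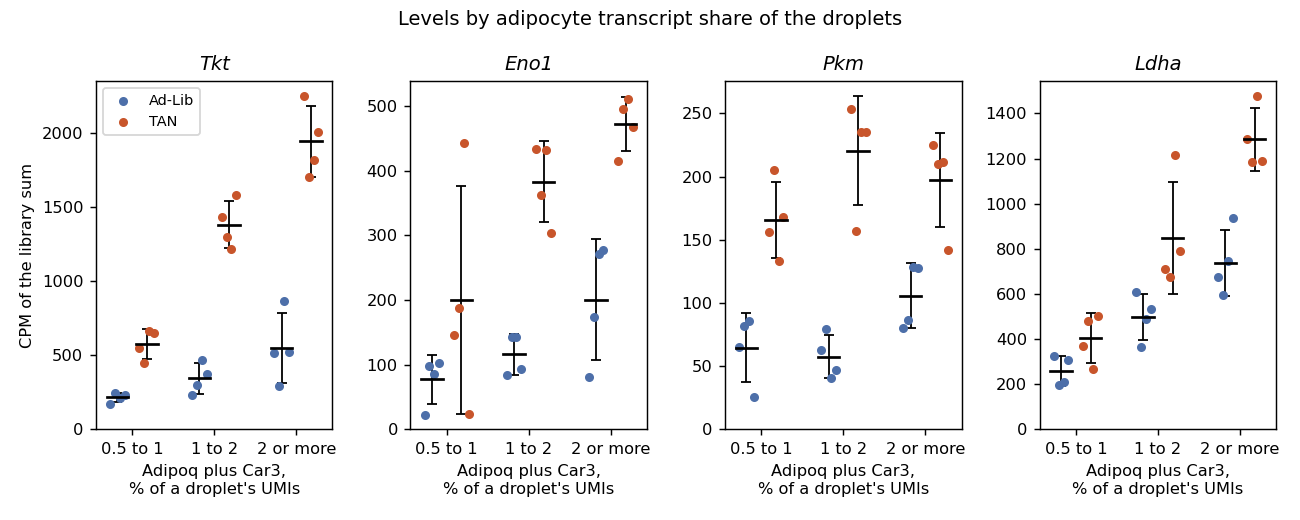
Level of Tkt, Eno1, Pkm and Ldha in adipocyte-rich droplets split by the share of UMIs from Adipoq and Car3, in CPM of the library sum. Points are libraries (4 per group) and bars are mean ± SD, and the Tkt means in TAN were above those in Ad-Lib in each range, 1940 against 548 CPM at the highest.

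Endothelial droplets were the other place where a member was called. In Pecam1+ droplets (3841 Ad-Lib, 4257 TAN) all 10 members were tested and Tkt alone was called, where 0.369% of 11639 genes were called higher. Tkt was at 59.5, 64.6, 66.0 and 56.1 CPM in Ad-Lib 1, 3, 5 and 7 and at 135, 127, 103 and 90.9 CPM in TAN 2, 4, 6 and 8, a log2 change of 0.93 ± 0.14 (adjusted p = 0.0108, edgeR). The groups did not overlap, nor did those of Eno1 and Ldha, against 4.15% of genes at 20 CPM or more that were higher in every TAN library. No member was lower in every TAN library, as 6.65% of genes were. Tkt did not pass without Ad-Lib 7 (0.88, adjusted p = 0.0528) or with droplets that held other lineages' markers kept (0.87, adjusted p = 0.103).

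Pecam1+ droplets also held adipocyte RNA, whose relation to Tkt across libraries was not tested. By the ratio of Adipoq CPM to that in adipocyte-rich droplets of the same library, adipocyte RNA made up 3.47% ± 0.872 of UMIs in Ad-Lib and 4.25% ± 1.77 in TAN. Scaled by that ratio, the Tkt of adipocyte-rich droplets would bring 13.3 ± 3.41 CPM into Ad-Lib libraries and 59.3 ± 23.2 CPM into TAN libraries. Observed minus expected Tkt was 47.2, 52.0, 47.9 and 46.1 CPM in Ad-Lib and 45.2, 61.3, 59.5 and 51.9 CPM in TAN, so the remainders overlapped. With droplets holding any Adipoq or Car3 UMI left out, 1374 Ad-Lib and 1442 TAN droplets remained and the log2 change of Tkt was 0.36 ± 0.14 (adjusted p = 0.413, edgeR). All genes called in Pecam1+ droplets fell from 112 to 3 in that setting, which also has fewer droplets.

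**Figure D3:**
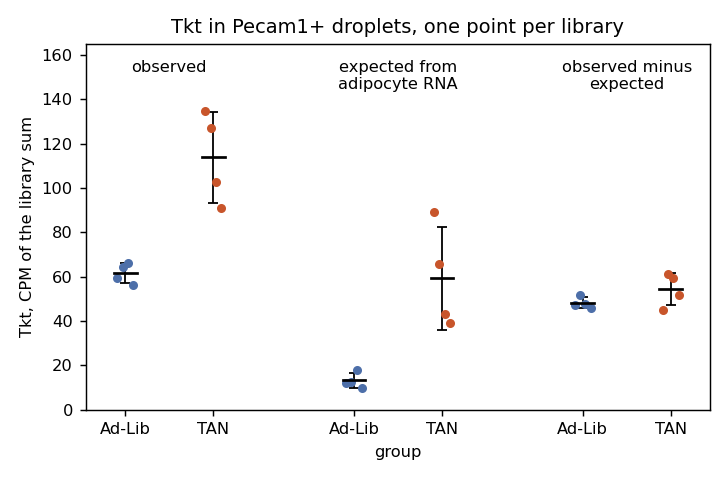
Tkt in Pecam1+ droplets, in CPM of the library sum, as observed, as the level that adipocyte RNA alone would bring, and as the difference of both. Points are the 4 libraries of each group and bars are mean ± SD, and the difference was 48.3 ± 2.55 in Ad-Lib and 54.5 ± 7.43 CPM in TAN.

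In Pecam1+ droplets Hk2 was at 4.49, 8.67, 6.86 and 5.49 CPM in Ad-Lib 1, 3, 5 and 7 and at 6.98, 13.6, 17.4 and 14.6 CPM in TAN 2, 4, 6 and 8, a log2 change of 1.04 ± 0.29 that did not pass (adjusted p = 0.105, edgeR). TAN 2 lay within the Ad-Lib range, and without it the change was 1.26 with an adjusted p of 0.0291. DESeq2 gave an adjusted p of 0.0379 with all libraries. Adipocyte RNA would bring 4.32 ± 1.47 CPM of Hk2 into Ad-Lib libraries and 8.44 ± 1.86 CPM into TAN libraries. Without droplets holding an Adipoq or Car3 UMI the log2 change of Hk2 was larger, at 1.55 ± 0.62 (adjusted p = 0.417), and that of Eno1 was 0.38 ± 0.14 (adjusted p = 0.393). In the same setting Ldha was at 0.01 ± 0.11, Pkm at 0.07 ± 0.13 and Taldo1 at 0.22 ± 0.14, while Slc2a4 was at -0.80 ± 0.41, Slc2a1 at -0.21 ± 0.26, G6pdx at -0.21 ± 0.29 and Pgd at -0.05 ± 0.17, and none of them passed. With all droplets Slc2a4 was at -0.04 ± 0.20 (adjusted p = 0.944). Also with all droplets, Eno1 was at 66.1 ± 9.13 and 85.7 ± 9.01 CPM (log2 change 0.41 ± 0.10, adjusted p = 0.0751) and Ldha at 185 ± 12.2 and 206 ± 9.28 CPM (0.18 ± 0.08, adjusted p = 0.287). Eno1 minus its expected adipocyte share was 61.3 ± 8.10 in Ad-Lib and 70.04 ± 10.2 CPM in TAN, and Ldha minus its own was 167 ± 14.2 in Ad-Lib and 167 ± 7.27 CPM in TAN. Pecam1+ droplets also differed in mitochondrial share, with library medians of 1.75% to 2.23% in Ad-Lib and 2.59% to 3.40% in TAN. The T cell list summed to 8.98, 131, 30.7 and 19.2 CPM in the Ad-Lib libraries and 42.3, 308, 491 and 87.2 CPM in the TAN libraries. The endothelial list was lower in every TAN library (4792 to 5669 CPM) than in every Ad-Lib library (5783 to 6783 CPM). The part of these measures in the members' values was not tested.

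In the other 4 lineages none of the members tested was called, and the shares of all genes called in either direction there were 0.796% of 12188 in Pdgfra+, 0.59% of 9834 in C1qa+, 3.98% of 7809 in Cd3e+ and 0.0% of 6827 in Cd79a+ droplets. Genes called lower in TAN made up 0.517%, 0.346% and 3.11% of those tested in the first 3. Of the members tested, 1 of 9 in Pdgfra+ and 2 of 8 in C1qa+ had an unadjusted p under 0.05, and none of 9 in Cd3e+ or of 7 in Cd79a+ did. Over all genes tested the shares were 14.0%, 14.2%, 20.7% and 1.77% in the same order. In none of these lineages did the 4 TAN libraries of a member lie on 1 side of the Ad-Lib libraries. Among genes at 20 CPM or more, every TAN library was higher for 5.13%, 2.99%, 3.78% and 0.926% and lower for 2.71%, 3.2%, 8.17% and 0.0861% in Pdgfra+, C1qa+, Cd3e+ and Cd79a+ droplets. DESeq2 also called no gene in Cd79a+ droplets, where 121 genes had an unadjusted p under 0.05 in edgeR. Cd79a+ sums are thin in Ad-Lib, since 470 of 561 droplets came from Ad-Lib 3 and 21 each from Ad-Lib 1 and Ad-Lib 7.

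In Pdgfra+ progenitor droplets 9 of the 10 members were tested and none was called, and Slc2a4 was below the filter. Pkm was at 101 ± 4.39 in Ad-Lib and 101 ± 4.31 CPM in TAN, and Ldha at 148 ± 14.1 and 145 ± 4.84 CPM. Tkt had the smallest adjusted p of the members there, at 66.1 ± 7.71 and 77.7 ± 5.92 CPM, a log2 change of 0.21 ± 0.08 (unadjusted p = 0.0164, adjusted p = 0.217, edgeR). Hk2 had the largest SD of the members among Ad-Lib libraries, at 45.2 ± 19.0 in Ad-Lib and 36.4 ± 7.22 CPM in TAN, a log2 change of -0.35 ± 0.26 (adjusted p = 0.623).

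In C1qa+ macrophage droplets the estimate nearest to a call was Ldha, at 119 ± 12.3 in Ad-Lib and 143 ± 19.2 CPM in TAN (log2 change 0.27 ± 0.09, adjusted p = 0.131, edgeR). In Cd3e+ droplets Hk2 was at 33.1 ± 14.3 in Ad-Lib and 19.7 ± 5.10 CPM in TAN (-0.48 ± 0.27, adjusted p = 0.343), and Ldha, a gene of activated T cells, at 276 ± 28.6 and 278 ± 19.8 CPM. In Cd79a+ droplets Slc2a1 was at 14.9 ± 6.12 and 9.84 ± 4.36 CPM (-0.77 ± 0.37, adjusted p = 1.00).

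**Figure D4:**
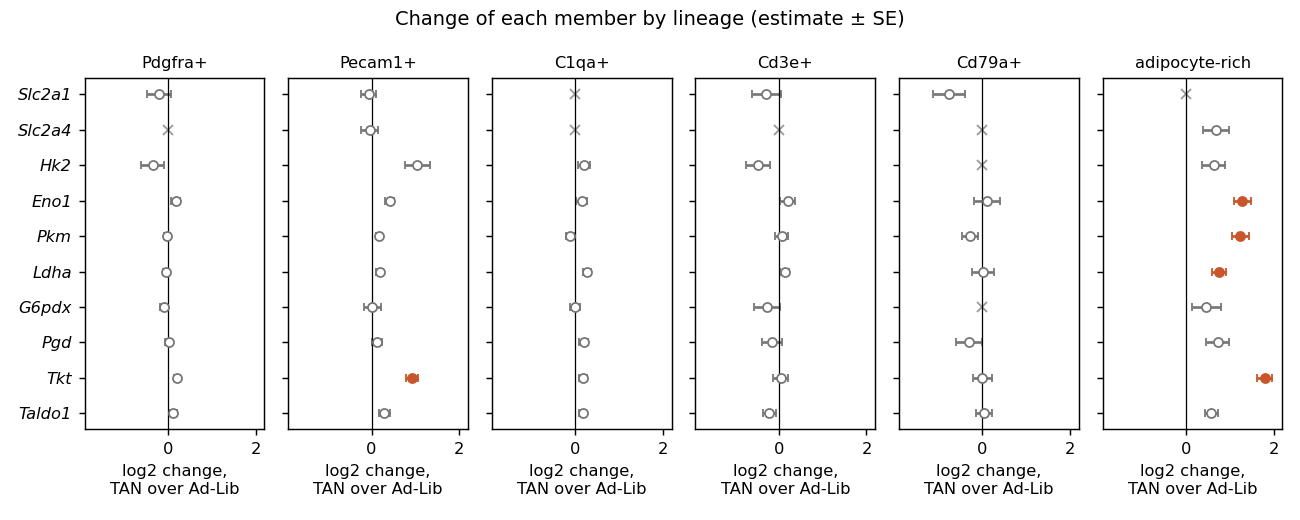
Log2 change of each member in TAN over Ad-Lib in the 6 lineages, as the edgeR estimate ± SE. Filled points passed the test, open points did not, and crosses at 0 mark members below the filter, for which no change was fitted. The 9 estimates in adipocyte-rich droplets all lie above 0, from 0.46 to 1.79.

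Whether the change differed between lineages was tested by limma on the difference of log2 CPM between lineages within each library, adjusted over all genes measured in both. The change in adipocyte-rich droplets exceeded that in Pdgfra+ droplets for Tkt by 1.64 ± 0.19 (adjusted p = 0.0019), for Pkm by 1.20 ± 0.17 (0.00387), for Eno1 by 1.23 ± 0.21 (0.0149) and for Ldha by 0.82 ± 0.18 (0.0462), where 1.96% of 2553 genes differed. Against C1qa+ droplets Tkt, Pkm and Eno1 differed by 1.68, 1.30 and 1.27 (adjusted p = 0.00592, 0.00946 and 0.0259, background 0.858%). Against Cd3e+ droplets the same genes differed by 1.74, 1.08 and 1.13 (adjusted p = 0.0269, 0.0426 and 0.0321, background 2.26%). Each library was left out in turn. The differences for Tkt and Pkm against Pdgfra+ droplets and for Tkt against C1qa+ droplets passed without any 1 library. Eno1 against Pdgfra+ droplets did not pass without TAN 2 (adjusted p = 0.0681) or TAN 4 (0.0507), nor did Pkm against C1qa+ droplets without Ad-Lib 7 (0.0568). Ldha against Pdgfra+ droplets passed in none of the 8 fits (adjusted p = 0.0723 to 0.163), and the differences for Eno1 against C1qa+ droplets and for all 3 genes against Cd3e+ droplets were lost in most.

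Against Pecam1+ droplets only Pkm passed, by 1.03 ± 0.18 (adjusted p = 0.0473, background 0.309%), which was lost when any 1 library was left out (adjusted p = 0.0657 to 0.173), and Tkt did not, at 0.98 ± 0.25 (adjusted p = 0.155). No member passed against Cd79a+ droplets (background 0.0456%), where the difference for Tkt was 1.85 ± 0.28 (adjusted p = 0.066). Between Pdgfra+ and Pecam1+ droplets none of 9 members passed (background 0.121%), and the change of Tkt was lower in Pdgfra+ by 0.69 ± 0.16 on the log2 scale (adjusted p = 0.144).

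The lineages also differed in their resting levels. In Ad-Lib mice Slc2a4 was at 47.2 ± 8.44 CPM in adipocyte-rich droplets, at 6.53 ± 0.594 CPM in Pecam1+ droplets, and at 0.586 CPM or less in each other lineage, where neighbours in the order overlapped. Adipocyte RNA would bring 1.67 ± 0.584 CPM of Slc2a4 into Pecam1+ droplets in Ad-Lib and 3.13 ± 1.10 CPM in TAN, against 6.53 ± 0.594 and 6.18 ± 1.31 CPM observed. A Slc2a4 UMI was found in 2.51% of Pecam1+ droplets in Ad-Lib and in 0.0973% of Cd3e+ droplets. The median depth was 4164 UMIs in the former and 5136 in the latter. Adipocyte RNA was estimated at 3.47% of UMIs in the former and 0.283% in the latter, so Cd3e+ droplets are not a matched background. Of all Slc2a4 UMIs, 52.9% in Ad-Lib and 44.2% in TAN lay in droplets assigned to no lineage.

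Slc2a1 was ordered otherwise. Cd79a+ (14.9 ± 6.12 CPM), Cd3e+ (13.4 ± 9.21 CPM) and Pecam1+ droplets (9.26 ± 1.64 CPM) overlapped with each neighbour, and all lay apart from Pdgfra+ droplets (3.55 ± 1.27 CPM). The Cd79a+ mean rests on 3, 31, 5 and 1 UMIs in Ad-Lib 1, 3, 5 and 7, and in TAN the mean was 10.3 CPM in Cd3e+ and 9.84 CPM in Cd79a+ droplets. C1qa+ droplets gave 13 Slc2a1 UMIs over 8 libraries.

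Hk2 had its highest mean in adipocyte-rich droplets (133 ± 60.7 CPM), followed by C1qa+, Pdgfra+ and Cd3e+ droplets (47.2 ± 9.97, 45.2 ± 19.0 and 33.1 ± 14.3 CPM), which overlapped with each other. The adipocyte-rich libraries (57.6 to 190.1 CPM) overlapped with the Pdgfra+ libraries (23.2 to 69.7 CPM) as well. It was low in Pecam1+ (6.38 ± 1.81 CPM) and Cd79a+ droplets (5.97 ± 4.02 CPM). G6pdx and Pgd had their highest means in C1qa+ and adipocyte-rich droplets, which overlapped. The Pdgfra+ libraries overlapped with both for G6pdx, the Cd3e+ libraries overlapped with the adipocyte-rich ones for Pgd, and the level of G6pdx was apart between Pdgfra+ (34.9 ± 4.97 CPM) and Cd3e+ droplets (17.6 ± 4.84 CPM). Ldha, Tkt and Taldo1 were highest in adipocyte-rich droplets and apart from the lineage that came next, Cd3e+ for Ldha (276 ± 28.6 CPM) and Taldo1 (198 ± 45.8 CPM) and C1qa+ for Tkt (84.1 ± 11.3 CPM). Eno1 had similar means in adipocyte-rich (142 ± 55.2 CPM) and Cd3e+ droplets (140.5 ± 47.6 CPM) and its lowest mean in Pdgfra+ droplets (39.9 ± 7.28 CPM), which were apart from the Pecam1+ libraries next to them in the order but lay within the range of the Cd79a+ libraries. Pkm had its highest means in Cd3e+ (171 ± 46.7 CPM) and C1qa+ droplets (132 ± 12.8 CPM), both overlapping with the Cd79a+ libraries, and its mean was lowest in adipocyte-rich droplets (80.6 ± 8.06 CPM), which overlapped with the Cd79a+ and Pecam1+ libraries.

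**Figure D5:**
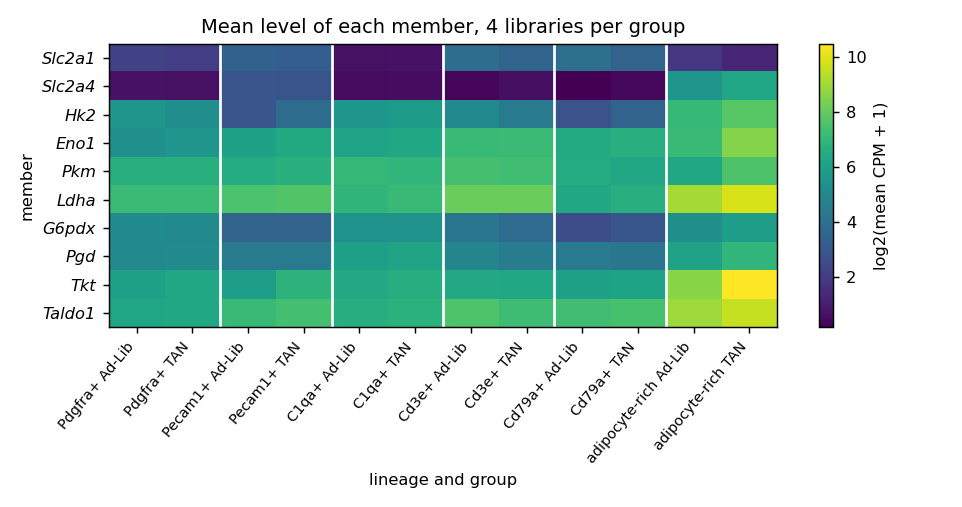
Mean level of each member by lineage and group as log2(mean CPM + 1), 4 libraries per group. Rows are to be read across lineages. In Ad-Lib mice Slc2a4 had its highest mean in adipocyte-rich droplets (47.2 CPM), where Slc2a1 was at 2.47 CPM, and the means of Slc2a1 in Cd79a+, Cd3e+ and Pecam1+ droplets (14.9, 13.4 and 9.26 CPM) came from overlapping libraries.

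Summed over all kept droplets without a gate, Tkt was at 76.3 ± 10.4 in Ad-Lib and 107 ± 14.1 CPM in TAN, Eno1 at 62.1 ± 12.1 and 88.9 ± 17.4 CPM and Ldha at 164 ± 12.5 and 187 ± 6.34 CPM, with no overlap between groups, where 4.24% of genes at 20 CPM or more were higher in every TAN library and 4.72% lower. Hk2 (38.0 ± 11.8 and 30.0 ± 2.17 CPM) and G6pdx (28.98 ± 5.28 and 22.3 ± 4.46 CPM) had lower means in TAN, with overlapping groups. These sums were not tested. In such sums a shift in the share of cell types and a change in the RNA of each cell cannot be told apart. Adipocyte-rich droplets held 4.16% of all Tkt UMIs in Ad-Lib and 12.1% in TAN, and the Cd3e+ gate held 3.02% and 7.72%.

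The rest of the pathway was followed in 39 further genes, also chosen with earlier results of these data known. In adipocyte-rich droplets 18 of them were tested, 7 rose, none fell, and their median log2 change was 0.45, where 3.09% of all genes tested rose and 3.36% fell. The genes of pyruvate entry rose in 4 of 4 tested: Mpc1 and Mpc2, the subunits of the mitochondrial pyruvate carrier (log2 changes 1.15 ± 0.15 and 0.93 ± 0.13), and Pdha1 and Pdhb of pyruvate dehydrogenase (0.83 ± 0.19 and 0.82 ± 0.19). Aldoa, an aldolase, rose by 0.88 ± 0.13 and Gapdh by 1.21 ± 0.14. Me1, the cytosolic malic enzyme that yields NADPH, had the largest log2 change of the list, 2.33 ± 0.17 (adjusted p = 4.4e-10, edgeR), from 250.3 ± 61.5 CPM in Ad-Lib to 1281 ± 193 CPM in TAN. Of the 11 genes that were tested and not called, 9 had estimates above 0, from 0.06 for Ldhb to 0.56 ± 0.24 for Pfkfb3, with Tpi1, the triose phosphate isomerase, at 0.46 ± 0.17 (adjusted p = 0.0996) and Pgk1 of lower glycolysis at 0.11 ± 0.24. The other 2 were Idh1, a cytosolic isocitrate dehydrogenase, at -0.20 ± 0.19 and Txnip, an inhibitor of glucose uptake, at -0.35 ± 0.14 (adjusted p = 0.15).

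In Pecam1+ droplets 31 of the 39 were tested, 1 rose and 1 fell, where 0.369% of all genes tested rose and 0.593% fell. Me1 rose from 14.1 ± 1.78 to 69.6 ± 24.1 CPM (log2 change 2.35 ± 0.24, adjusted p = 0.00118), where adipocyte RNA would bring 8.30 ± 0.723 and 54.7 ± 26.4 CPM, and Pfkfb3, which makes the activator of phosphofructokinase, fell from 53.2 ± 10.999 to 24.9 ± 3.15 CPM (log2 change -1.08 ± 0.15, adjusted p = 0.00578, edgeR). Without droplets holding an Adipoq or Car3 UMI, Pfkfb3 was at -1.01 ± 0.17 (adjusted p = 0.0754, edgeR) and Me1 at 1.65 ± 0.32 (adjusted p = 0.149). Pfkfb3 was also not called with droplets that held other lineages' markers kept. In C1qa+ droplets 1 of 30 genes tested was called, where 0.244% of all genes tested rose. Me1 rose there from 1.33 ± 0.495 to 15.4 ± 3.16 CPM, where adipocyte RNA would bring 1.26 ± 0.51 and 7.87 ± 5.31 CPM. It passed without droplets holding an Adipoq or Car3 UMI too (3.26 ± 0.47, adjusted p = 0.00286, edgeR), and it was not called by DESeq2. In Cd3e+ droplets Pfkp, a phosphofructokinase, fell from 95.9 ± 19.3 to 55.1 ± 9.58 CPM (-0.63 ± 0.16, adjusted p = 0.0468), and it was not called with a term for library numbers (1 to 4 against 5 to 8) or without any 1 of Ad-Lib 1, Ad-Lib 7 and the 4 TAN libraries. No gene of the list was called in Pdgfra+ (33 tested) or Cd79a+ droplets (19 tested).

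The patterns most like those of the members were found by Pearson's correlation of log2(CPM + 1) over the 48 lineage and library sums, among 6181 genes at 20 CPM or more. These sums share libraries and differ in depth, so the values only describe. Slc2a4 was closest to A530016L24Rik, Orm1 and Lep (0.97, 0.97 and 0.96), and Tkt to Agpat2, Uqcrq and Acly (0.96, 0.94 and 0.93). Taldo1 was closest to Uqcrfs1, Cox8a and Ndufa4 (0.96, 0.95 and 0.94), Ldha to Atp5g3, Glrx5 and Uqcr10 (0.95, 0.95 and 0.94) and Eno1 to Slc25a5, Gapdh and Atp5md (0.89, 0.88 and 0.88). The likeness was weaker for Pkm (Mrpl33 first, 0.74), and Slc2a1 was closest to 4930523C07Rik (0.89), Hk2 to Akt2 (0.87), G6pdx to Pdxk (0.91) and Pgd to Ncoa4 (0.89).

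Genes related to members, found by their symbols, can share sequence with them, and the reads lost to this were not measured. Eno1b had 420 UMIs, 2.57% of the 16374 of Eno1, and it is not known how the counting split reads between both. G6pd2 and Tktl2 had no UMI, Tktl1 had 43 and Ldhal6b 27. The splice forms of Pkm, which encode the M1 and M2 kinases, are not separated by 3′ counts.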

How the data were processed

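Single cells of the iWAT SVF were captured on a droplet platform with UMIs. The authors deposited filtered matrices of raw UMI counts per gene and barcode, with no normalization. The submitters' notes name Cell Ranger 3.0.2 and the file headers name version 6.0.1, and the build was mm10 (GRCm38). Of 32285 gene IDs, 32158 were found in the GENCODE M21 annotation.

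Droplets with 700 to 30000 UMIs, 200 to 8000 genes and at most 10% mitochondrial UMIs were kept. A lineage needed at least 1 UMI of its marker (3 of C1qa) and none of the others. Droplets with markers of several lineages were left out, which stood in for doublet removal, and no doublet caller was run. Lineages were rebuilt from markers, so they may differ from the study's clusters. Raw UMIs were summed per library and lineage (at least 10 droplets). TAN was compared with Ad-Lib in edgeR 4.0.16 (TMM, filterByExpr, quasi-likelihood test, Benjamini-Hochberg adjustment over all genes tested). The study's cell-level rank test was not used, since cells are not replicates. The change was compared between lineages in limma 3.58.1 (log2 CPM, prior count 2). Members below the filter had an exact two-sided permutation test over 70 assignments of libraries, whose smallest p is 2 in 70. DESeq2 1.42.0 was an alternative. R 4.3.3, Python 3.11.15, numpy 2.4.6, pandas 2.3.3, scipy 1.17.1 and matplotlib 3.10.9 were used, and both fits were tested on simulated data.

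All 10 members are drawn for every lineage in the figures. In lineages without a called member the text gives the change of only some members, picked after their values were seen. Every pathway gene called in a lineage is named, with some or all of the 3 genes most like each member. The pathway genes named without a call (Ldhb, Tpi1, Pgk1, Idh1 and Txnip, and Pfkfb3 in adipocyte-rich droplets) were named after their values were seen. The members and lists were chosen with earlier results of these data known. The libraries are separate samples by their labels, and where they are not separate animals the p-values measure technical spread. Floors for counts of 0 (3 UMIs of the sum) cover counting error only. Alternatives were other scalings, filters, gates and thresholds, and each library left out in turn.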

Additional observations from a re-analysis of the deposited data

Results flagged for a closer look

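Among 104 groups of 4 libraries, 2 held a library far from the others, and chance alone flags about 1 group in 20. Slc2a1 in Pecam1+ droplets was at 6.81 CPM in Ad-Lib 3 and at 9.86 to 10.2 CPM in the other Ad-Lib libraries. G6pdx in C1qa+ droplets was at 53.0 CPM in TAN 8 and at 37.7 to 38.7 CPM in the other TAN libraries.

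The change under TAN differed between lineages for 4 members by limma's test of the difference. In adipocyte-rich against Pdgfra+ droplets the log2 difference was 1.64 for Tkt, 1.20 for Pkm, 1.23 for Eno1 and 0.82 for Ldha. Against C1qa+ droplets it was 1.68 for Tkt, 1.30 for Pkm and 1.27 for Eno1. Against Cd3e+ droplets it was 1.74 for Tkt, 1.08 for Pkm and 1.13 for Eno1. Against Pecam1+ droplets it was 1.03 for Pkm. This last difference, and that of Ldha against Pdgfra+ droplets, passed in no fit that left a library out. The differences for Eno1 against C1qa+ droplets and for all genes against Cd3e+ droplets were lost in most of those fits.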

How the results depend on the processing

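No paired analysis was possible because the groups share no replicate numbers. In adipocyte-rich droplets Tkt and Eno1 were called under all 20 alternatives (log2 change 1.51 to 2.02 and 1.12 to 1.43), Pkm under 19 and Ldha under 18. Taldo1 was called under 7 of 20, Pgd under 2 of 19 (a mitochondrial limit of 20%, and a term for library numbers 1 to 4 against 5 to 8) and Hk2 under 1 (the same term). Leaving out droplets with a stroma, endothelium or pericyte UMI was chosen after seeing the data. The causes of the changes below were not tested. Adipocyte-rich droplets are shallow, which limits Slc2a1, Slc2a4 and G6pdx, and Cd79a+ sums rest on few Ad-Lib droplets.

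Counts of genes called moved as follows, with all libraries. Without the filter on low counts they were 178 in Pdgfra+, 176 in Pecam1+, 226 in C1qa+, 929 in Cd3e+ and 7 in Cd79a+ droplets. With no minimum change they were 171, 194 and 105 in Pdgfra+, Pecam1+ and C1qa+. With other markers kept they were 56, 31, 31 and 484 in Pdgfra+, Pecam1+, C1qa+ and Cd3e+. DESeq2 called 200 in Pecam1+, 548 in Cd3e+ and 89 in adipocyte-rich droplets. A gate of at least 2 UMIs gave 169 in Pecam1+, and leaving out droplets with an Adipoq or Car3 UMI gave 3 in Pecam1+ and 30 in C1qa+. A term for library numbers gave 200 in Cd3e+. In adipocyte-rich droplets the 0.2% threshold gave 99 and the step chosen after seeing the data 92. Members called in Pecam1+ were 2 by DESeq2 and with at least 2 UMIs, and 0 with other markers kept or without Adipoq or Car3 droplets. With a prior count of 0.5, 0 members differed between adipocyte-rich and Pecam1+ droplets.

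With 1 library left out, genes called ranged from 25 to 132 in Pdgfra+, 49 to 143 in Pecam1+, 20 to 62 in C1qa+, 21 to 976 in Cd3e+ and 112 to 152 in adipocyte-rich droplets. Members called ranged from 0 to 2 in Pecam1+ and 4 to 5 in adipocyte-rich droplets. Members whose change differed from adipocyte-rich droplets ranged from 2 to 3 for Pdgfra+, 0 to 0 for Pecam1+, 1 to 3 for C1qa+ and 0 to 2 for Cd3e+. Pathway genes called ranged from 0 to 1 in Pdgfra+ and 0 to 4 in Cd3e+.

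Log2 changes that were not called turned direction in these cases. With at least 2 UMIs of the marker, Slc2a1 was 0.12 in Pdgfra+ and 0.01 in Pecam1+, Slc2a4 0.064 and G6pdx -0.0062 in Pecam1+, Pkm -0.0374 and Tkt -0.12 in Cd3e+, and Tkt 0.015 in Cd79a+. With other markers kept, G6pdx was -0.12 in Pecam1+ and Tkt 0.12 in Cd79a+. Without Adipoq or Car3 droplets, G6pdx was -0.21 and Pgd -0.0487 in Pecam1+, G6pdx 0.0862 in C1qa+, Tkt -0.0573 in Cd3e+ and Eno1 -0.0246 in Cd79a+. In Cd79a+ droplets Ldha was -0.0042 with RLE factors, and Tkt was 0.0012 by DESeq2, 0.0563 with no filter and 0.0037 without mitochondrial genes.

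With 1 library left out the ranges that crossed 0 were, in Pdgfra+ droplets, -0.0663 to 0.005 for Pkm and -0.0301 to 0.0542 for Pgd. In Pecam1+ they were -0.17 to 0.0014 for Slc2a1, -0.11 to 0.0884 for Slc2a4 and -0.10 to 0.18 for G6pdx, and in C1qa+ -0.12 to 0.0507 for G6pdx. In Cd3e+ they were -0.44 to 0.11 for Slc2a1, -0.0392 to 0.18 for Pkm, -0.26 to 0.052 for Pgd and -0.10 to 0.12 for Tkt. In Cd79a+ they were -0.0508 to 0.32 for Eno1, -0.071 to 0.35 for Ldha, -0.10 to 0.12 for Tkt and -0.0305 to 0.13 for Taldo1. Of the differences between lineages, Hk2 in adipocyte-rich minus Pecam1+ ranged from -0.43 to 0.001, and in Pdgfra+ minus Pecam1+ Slc2a1 ranged from -0.33 to 0.14 and Pgd from -0.17 to 0.0034.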
